A study of Mus musculus with 9 samples.

Results

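Potassium channels set the resting potential of neurons and glia and end the action potential. The genes whose symbol starts with Kcn encode the pore subunits of these channels and many of the partners that steer their assembly, gating and place in the membrane. The voltage-gated families open on depolarisation, the inward rectifiers and the tandem-pore leak channels hold the cell near its resting potential, and the calcium- or sodium-activated families tie the current to ions that enter during firing. In ischaemic brain, potassium leaves cells that have lost their energy supply, and channels on vessels, glia and immune cells are known to take part in the response of the tissue.

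All genes with a symbol that starts with Kcn were taken, with antisense transcripts left out. The symbol came from the RefSeq accession of each non-control probe. The array carried 94 such genes on 127 probes, among 20145 genes with a symbol. Of the 94, 89 were tested, because in at least 1 group each of the 3 arrays read a probe of the gene as well above background. The other 5 were Kcne1, Kcnj1, Kcnk18, Kcnn1 and Kcnv2, none of which met that condition in any group. The chosen probe was well above background on all 9 arrays for 84 of the 94 genes.

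The data are 9 Agilent 1-colour arrays of brain RNA, 3 for each of 3 groups of male C57/BL6 mice aged 50 to 53 days. Sham mice had sham surgery only, and no injection is stated for them. MCAO mice had a middle cerebral artery closed for 90 min, followed by reperfusion, and were given 1 µl of PBS into the right lateral ventricle at 3 h. VEGF mice had the same 90 min occlusion and at 3 h were given 1 µl of recombinant human VEGF-A165, a growth factor of blood vessels, at 10 µg/ml. All brains were taken 24 h after reperfusion, and the 3 repeats used different mice. The labels do not say which part or side of the brain was homogenised, so the share of infarcted tissue in each sample is unknown. MCAO and VEGF arrays together are called ischaemic below.

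Neuron, astrocyte and oligodendrocyte markers were well above background on every array (10 of 10, 8 of 8 and 8 of 8 genes), as the brain label requires. Between 73.0% and 81.8% of spots were well above background on an array, and the array's 75th percentile signal lay between 723 and 1770. MCAO array 1 and VEGF array 1 stood apart from the other ischaemic arrays, with the 2 lowest of these percentile signals. That they lay far from the others was known from earlier results of these data, and results are also given without this pair. Because this choice rests on the same data, p-values without the pair are likely too small. The 3 sham arrays shared a slide, and the 6 ischaemic arrays shared another, so slide and ischaemia cannot be told apart. Both ischaemic groups also had a ventricular injection, and none is stated for sham. In every comparison with sham, a part of the injection therefore cannot be separated from that of the occlusion. In whole tissue, fewer cells of a type and less RNA per cell cannot be told apart either.

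Kcn genes lay lower in ischaemic brain as a group, yet few passed the test singly. The values are log2 signals on which each array's 75th percentile is 0, and differences are given in log2 units with the standard error of the limma fit (n = 3 arrays per group). With all 9 arrays, 0 of the 89 genes passed at a Benjamini-Hochberg adjusted limma p of 0.05 in MCAO against sham, where 2.81% of all 30837 genes tested passed. In VEGF against sham 0 of 89 passed, against 2.43% of all genes. At an unadjusted p under 0.05 there were 20 of 89 in the first comparison (22.5%), against 21.4% of all genes, and 13 in the second (14.6%), against 23.5%. The mean of both ischaemic groups against sham gave 2 of 89, the pore subunit gene Kcnk6 higher and the auxiliary subunit gene Kcnip2 lower, against 5.62% of all genes. The share of Kcn genes called was thus below the background in each of these comparisons, which share the sham arrays.

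The median Kcn difference was -0.69 in MCAO, -0.48 in VEGF and -0.64 in both together against sham, where the medians over all genes were -0.04, -0.12 and -0.09. In the combined comparison 70 of 89 Kcn genes (78.7%) had a difference below 0, against 56.1% of all genes tested. The single differences ran from -2.89 for Kcng1 to 2.18 for Kcnq1. The median standard error of a Kcn gene was 0.48 in that comparison and 0.56 in the others, which is larger than the 0.27 and 0.31 over all genes.

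Without MCAO array 1 and VEGF array 1, 25 of 89 Kcn genes passed in the combined comparison, against 30.8% of all genes. Of these 6 were higher, against 12.6% of all genes, and 19 lower, against 18.2%. In MCAO against sham 20 passed, where the background was 22.8%. The split was 4 higher and 16 lower, where 9.79% and 13% of all genes passed in those directions. In VEGF against sham 11 passed, where the background was 20%, and 2 of them were higher and 9 lower, against 8.76% and 11.3%. The share of Kcn genes called was thus near the background or below it, and the 2 genes called with all 9 arrays were among the 25. The median Kcn difference without the pair was -0.36 in the combined comparison, against -0.11 over all genes. Of the Kcn genes 71.9% then had a difference below 0, against 59.2% of all genes. The median standard error of a Kcn gene was 0.22 in that fit, against 0.48 with all 9 arrays. Leaving out the pair made the difference of 44 of the 89 genes (49.4%) more than 1.5 times smaller and turned the sign of 12 (13.5%), against 30.1% and 11.7% of all genes. Below, a value in parentheses straight after a difference from sham is the same difference without the pair.

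All 6 ischaemic arrays lay below every sham array for 15 of 89 Kcn genes, against 12.5% of all genes, and above every sham array for 5, against 14.6%. The 5 were Kcne4, Kcnj8, Kcnk6, Kcnn4 and Kcnq1. All 3 MCAO arrays lay below every sham array for 37 Kcn genes (41.6%), against 20.7% of all genes, and above for 8, against 19.6%. All 3 VEGF arrays lay below for 21 Kcn genes (23.6%), against 23.9% of all genes, and above for 5, against 18.2%. Kcn genes were thus fewer than the background among those above sham in each group, while the share below sham was larger than the background in MCAO and close to it in VEGF. This difference between the 2 groups was not tested. Without the pair, the 4 remaining ischaemic arrays lay below every sham array for 22 Kcn genes (24.7%), against 25.6% of all genes, and above for 6, against 16.6%, so the share below sham was then close to the background.

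**Figure D1:**
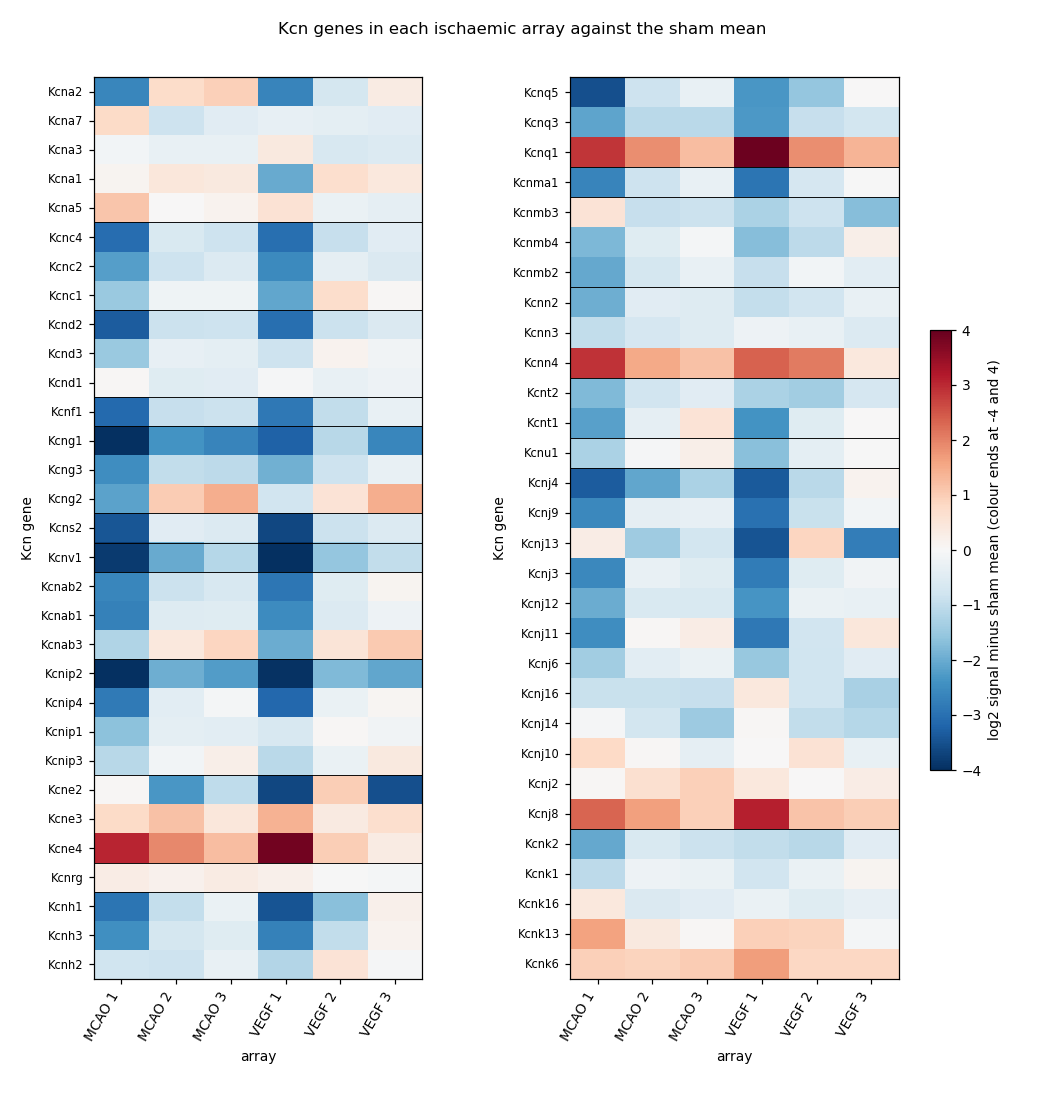
Difference of the log2 signal from the sham mean (colour) for the 61 tested Kcn genes that the text names (rows, grouped by subfamily) on each of the 6 ischaemic arrays (columns). Most rows are blue and are darkest on MCAO array 1 and VEGF array 1, while Kcnq1, Kcne4, Kcnj8, Kcnn4 and Kcnk6 are red on all 6 arrays.

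The depth of the shift differed between arrays. The median of the 89 Kcn genes against the sham mean was -1.28 on each array of the pair. It was -0.44 and -0.31 on MCAO arrays 2 and 3 and -0.39 and -0.13 on VEGF arrays 2 and 3. The medians over all genes were 0.21 on MCAO array 1 and -0.07 on VEGF array 1. They were -0.11 and -0.09 on MCAO arrays 2 and 3 and -0.10 and -0.09 on VEGF arrays 2 and 3. On VEGF array 3 the Kcn median was thus close to that of all genes. The median of 10 neuron markers was also lowest on the pair, at -2.43, -0.73 and -0.42 in MCAO mice and -2.30, -0.53 and -0.27 in VEGF mice. The summed signal of those 10 markers was 719 to 761 in sham, 180 to 577 in MCAO and 184 to 641 in VEGF mice, in multiples of the array's 75th percentile. With all arrays 0 of 10 neuron markers passed, against 5.62% of all genes, and without the pair 5 were lower, against 18.2%. The 8 endothelial markers had medians above the sham mean, of 1.74 on MCAO array 1, 2.44 on VEGF array 1 and 0.30 to 0.63 on the others, and summed signals of 26.9 to 28.3 in sham, 33.5 to 82.9 in MCAO and 34.8 to 128 in VEGF mice. With all arrays 0 of 8 endothelial markers were called higher and 1 lower, against 4.24% and 1.38% of all genes. Without the pair 3 were higher and 1 lower, against 12.6% and 18.2%. The part that these cell types have in the Kcn differences was not tested.

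**Figure D2:**
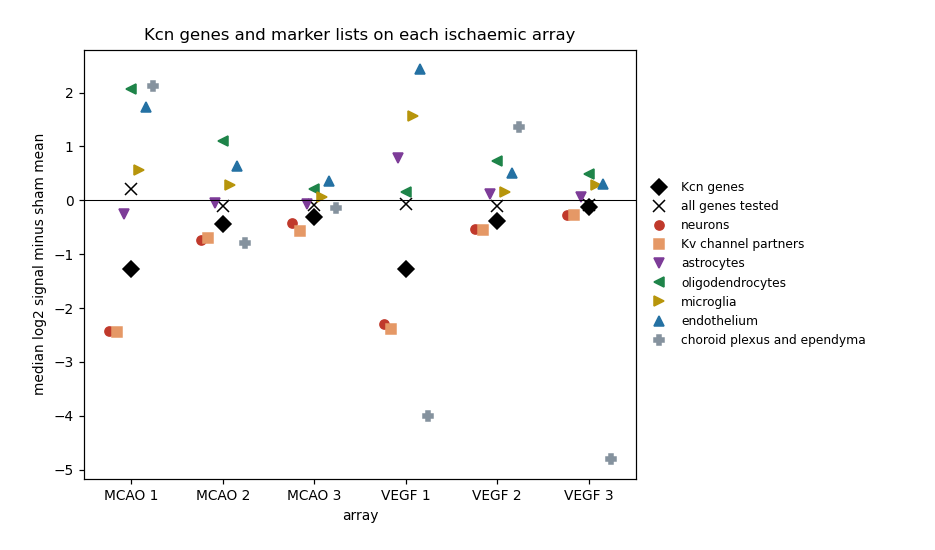
Median log2 signal minus the sham mean on each ischaemic array for the 89 Kcn genes, all genes tested and 7 gene lists (points, offset sideways for legibility). The Kcn median is lowest on MCAO array 1 and VEGF array 1 (both -1.28), where the neuron median is -2.43 and -2.30.

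By subfamily, 19 of 21 medians lay below 0 in the combined comparison, and 19 of 21 did so without the pair. The 2 medians above 0 with all arrays were those of Kcne (0.08) and Kcnrg (0.15). Among subfamilies with at least 3 genes tested, the lowest medians were those of Kcnq (-1.38), Kcns (-1.25) and Kcnab (-1.16). Without the pair the lowest were Kcnq (-0.67), Kcnn (-0.50) and Kcnab (-0.44), with Kcns at -0.34. Kcna, the Shaker family, had a median of -0.03 with 4 of 8 genes below 0, and Kcnh, the ether-a-go-go family, had -0.60 with 8 of 8 below 0. Without the pair these 2 medians were 0.10 and -0.32. Differences between subfamilies were not tested.

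**Figure D3:**
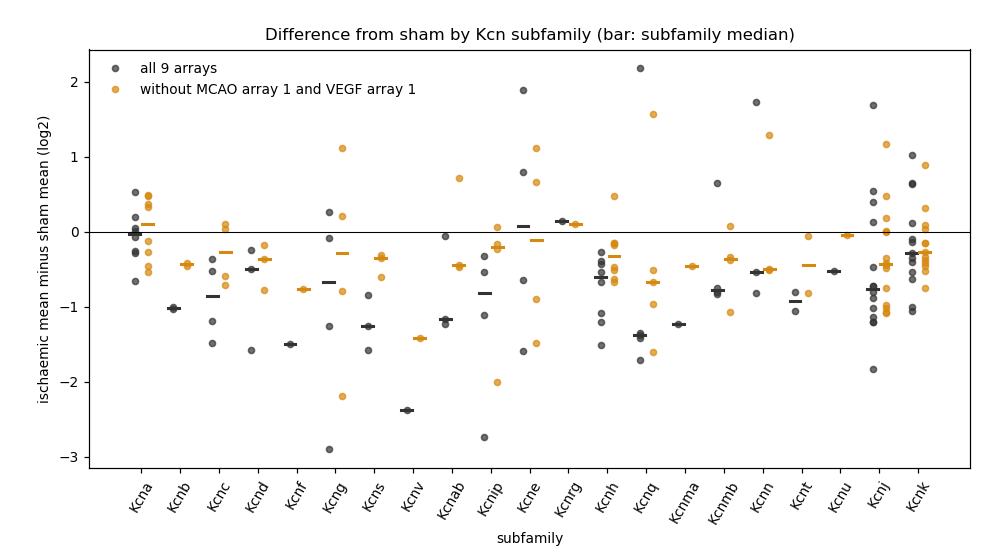
Difference of the ischaemic mean from the sham mean (log2) for each tested Kcn gene (points), by subfamily, with all 9 arrays (dark) and without MCAO array 1 and VEGF array 1 (orange), with bars at subfamily medians. The dark medians of 19 of 21 subfamilies lie below 0, from -2.37 for the single tested Kcnv gene to -0.03 for Kcna.

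The transient A-type current of dendrites is carried by Kcnd pores with Kcnip partners, which bind calcium and bring the pores to the membrane. Kcnip2 showed the clearest fall of this set. Its log2 signal was 0.86, 0.35 and 0.22 in sham mice, -3.94, -1.47 and -1.77 in MCAO mice and -3.47, -1.30 and -1.59 in VEGF mice. The groups did not overlap, and MCAO array 1 and VEGF array 1 were the lowest. Kcnip2 fell by 2.73 ± 0.64 against sham (limma adjusted p = 0.0459), a 6.65-fold lower signal. Without the pair the difference was -2.01 ± 0.19 (limma adjusted p = 0.00146). The call was lost with quantile normalization, the deposited table or no filter on dim probes (limma adjusted p = 0.0545, 0.0544 and 0.0585), and just missed the threshold with each array's median as the base. It was also lost without MCAO array 2, MCAO array 3 or VEGF array 3 (limma adjusted p = 0.053, 0.063 and 0.055) and without any 1 sham array (0.144 to 0.209), on differences of -2.96 to -2.54.

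The other Kcnip genes differed less from sham. Kcnip4 differed by -1.11 ± 0.81 (-0.17 ± 0.16), Kcnip1 by -0.53 ± 0.32 (-0.23 ± 0.15) and Kcnip3, whose protein is also a transcriptional repressor, by -0.32 ± 0.37 (0.06 ± 0.19), and none passed with or without the pair. The pore gene Kcnd2, the main dendritic A-type pore, read 2.73, 3.41 and 3.39 in sham mice, -0.15, 2.30 and 2.36 in MCAO mice and 0.17, 2.31 and 2.60 in VEGF mice. All 6 ischaemic values lay below every sham value, with the pair lowest again. Kcnd2 differed by -1.58 ± 0.70 with all arrays (limma adjusted p = 0.182) and by -0.78 ± 0.20 without the pair (limma adjusted p = 0.0282). Kcnd1 differed by -0.24 ± 0.17 and passed without the pair at -0.36 ± 0.10, and Kcnd3 differed by -0.50 ± 0.31 (-0.18 ± 0.12) and did not pass.

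The promoters of Kcnip2, Kcnd2, Kcnn4 and Kcnj8 are printed here because these genes show both directions of difference from sham. Each runs from 250 bases before to 50 bases after the start of the RefSeq transcript (GRCm38.p6), in the direction of the gene. Capitals mark matches, on either strand, to the GC box (GGGCGG), the CCAAT box (CCAAT) and the E-box (CACGTG).
Kcnip2, chr19:45816014-45816313, minus strand: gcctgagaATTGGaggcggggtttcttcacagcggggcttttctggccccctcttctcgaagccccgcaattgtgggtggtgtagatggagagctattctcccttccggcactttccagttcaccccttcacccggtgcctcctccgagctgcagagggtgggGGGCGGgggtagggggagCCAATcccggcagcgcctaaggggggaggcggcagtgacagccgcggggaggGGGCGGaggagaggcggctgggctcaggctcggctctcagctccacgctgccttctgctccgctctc
Kcnd2, chr6:21215096-21215395, plus strand: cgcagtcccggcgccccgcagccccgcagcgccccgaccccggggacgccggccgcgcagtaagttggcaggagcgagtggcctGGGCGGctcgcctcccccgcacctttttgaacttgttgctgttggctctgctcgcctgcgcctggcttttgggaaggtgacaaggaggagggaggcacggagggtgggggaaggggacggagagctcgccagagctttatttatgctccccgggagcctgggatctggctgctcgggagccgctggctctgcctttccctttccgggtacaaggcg
Kcnn4, chr7:24370013-24370312, plus strand: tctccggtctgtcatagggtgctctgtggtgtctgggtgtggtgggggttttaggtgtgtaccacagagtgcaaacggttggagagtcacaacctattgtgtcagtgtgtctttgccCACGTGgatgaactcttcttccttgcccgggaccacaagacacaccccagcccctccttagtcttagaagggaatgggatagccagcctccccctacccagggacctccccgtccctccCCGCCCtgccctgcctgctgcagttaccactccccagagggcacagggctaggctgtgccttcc
Kcnj8, chr6:142571565-142571864, minus strand: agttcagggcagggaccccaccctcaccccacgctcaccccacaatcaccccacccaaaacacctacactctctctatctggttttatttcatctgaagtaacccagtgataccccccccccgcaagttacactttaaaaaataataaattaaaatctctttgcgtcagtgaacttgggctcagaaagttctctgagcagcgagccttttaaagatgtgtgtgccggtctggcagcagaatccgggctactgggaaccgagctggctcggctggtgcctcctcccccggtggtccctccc

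The Kcnip2 promoter held 2 GC boxes and 2 CCAAT boxes and the Kcnd2 promoter 1 GC box, at a GC content of 67.0% and 68.7%. The Kcnn4 promoter held 1 GC box and 1 E-box at 59.7% GC, and the Kcnj8 promoter held none of the 3 motifs at 53.3%. The table of promoters held 94 sequences for 69 of the 94 Kcn genes and 32851 for all genes, with median GC contents of 58.0% and 52.7%. A GC box was present in 47.9% of Kcn promoters and 35.7% of all, a CCAAT box in 30.9% and 37.4%, and an E-box in 7.45% and 7.15%. The TATA box (TATAAA) was found in 5.32% of Kcn promoters and 13.6% of all, and the AP-1 site (TGANTCA) in 4.26% and 7.81%. The cyclic AMP response element (TGACGTCA) was found in 0 Kcn promoters and 1.79% of all, and the RE1 element of the neuronal repressor REST in 0 and 0.0639%. All motifs were searched on both strands. Kcnk6 has no entry in the table. These matches are letters in a window and were not related to the signals by a test.

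Among other voltage-gated pores, the Kcnc family, which lets interneurons fire fast, had means below sham for 4 of 4 genes with all arrays. Kcnc2 read 1.96, 2.13 and 2.14 in sham mice, -0.14, 1.25 and 1.52 in MCAO mice and -0.48, 1.72 and 1.49 in VEGF mice, so every ischaemic value lay below every sham value. It differed by -1.18 ± 0.53 and passed only without the pair, at -0.58 ± 0.12 (limma adjusted p = 0.0171). Kcnc4 differed by -1.48 ± 0.69 (-0.70 ± 0.24), also without overlap, and passed in neither fit. Kcnc1 differed by -0.53 ± 0.61 (0.10 ± 0.29) with overlapping groups.

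The Shaker pores did not share the fall of the group median. Kcna1, found on axons, read 3.19, 4.08 and 3.94 in sham mice, 3.85, 4.18 and 4.12 in MCAO mice and 1.72, 4.41 and 4.17 in VEGF mice. VEGF array 1 was lowest by over 1 unit and the other 5 ischaemic values lay within or just above the sham range, giving a difference of 0.01 ± 0.56 (0.48 ± 0.23). Kcna2, its axonal partner, differed by -0.66 ± 0.88 (0.33 ± 0.31), with the 2 lowest values, -3.11 and -3.16, on MCAO array 1 and VEGF array 1 and a sham range of -0.89 to 0.00. Kcna3, known from T cells and microglia, differed by -0.25 ± 0.27 (-0.45 ± 0.18). The largest MCAO difference of the subfamily was that of Kcna5 (0.42 ± 0.38), whose 2 probes disagree in sign. None of the 8 Kcna genes passed with all arrays, and without the pair Kcna7 was lower (-0.53 ± 0.12).

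The beta subunits that dock on Shaker pores read lowest on the pair, and their differences shrank or turned without it. Kcnab1 differed by -1.16 ± 0.63 (-0.44 ± 0.17), Kcnab2 by -1.23 ± 0.68 (-0.47 ± 0.21) and Kcnab3 by -0.05 ± 0.71 (0.72 ± 0.29), and 0 of 3 passed in either fit. Partners of voltage-gated channels without a Kcn symbol were taken as a list of 12, among them the auxiliary subunits Dpp6 and Dpp10 and the scaffold Dlg4. Their median difference was -1.16 with 0 of 12 called, against 5.62% of all genes. Without the pair 5 of 12 were lower, against 18.2% of all genes, with a median of -0.50. Dlg4 then differed by -1.01 ± 0.20 (limma adjusted p = 0.0131).

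Silent subunits form no channel on their own and alter Kcnb pores once assembled with them. They belong to Kcnf, Kcng, Kcns and Kcnv, and 8 of the 9 tested had a difference below 0, with a median of -1.26, and of -0.60 without the pair. Kcng1 had the lowest difference of all Kcn genes. Its log2 signal was 1.73, 1.48 and 0.97 in sham mice, -3.95, -1.01 and -1.24 in MCAO mice and -1.85, 0.28 and -1.23 in VEGF mice. Every ischaemic value lay below every sham value, and VEGF array 2 came nearest to sham. Kcng1 differed by -2.89 ± 0.70 (limma adjusted p = 0.051) and by -2.19 ± 0.38 without the pair (limma adjusted p = 0.00869). Its second probe gave -2.05 in place of -2.89.

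Kcnv1, a silent subunit of cortical neurons, read 1.88, 1.62 and 1.91 in sham mice, -2.04, -0.22 and 0.67 in MCAO mice and -2.92, 0.26 and 0.83 in VEGF mice. All ischaemic values lay below every sham value. The difference was -2.37 ± 0.85 with all arrays (limma adjusted p = 0.124) and -1.42 ± 0.25 without the pair (limma adjusted p = 0.00966). Kcng3 differed by -1.26 ± 0.43 and Kcns2 by -1.58 ± 0.84, both without overlap, and both were lower without the pair (-0.79 ± 0.15 and -0.60 ± 0.14). Kcng3 was well above background on 2 of 3 arrays in each ischaemic group. Kcnf1 differed by -1.50 ± 0.66 (-0.76 ± 0.24) and passed in neither fit. Kcng2 was the exception, with 0.26 ± 0.80 (1.12 ± 0.31), and it was called higher without the pair, but its 2 probes disagree in sign (-1.59 and 0.26).

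**Figure D4:**
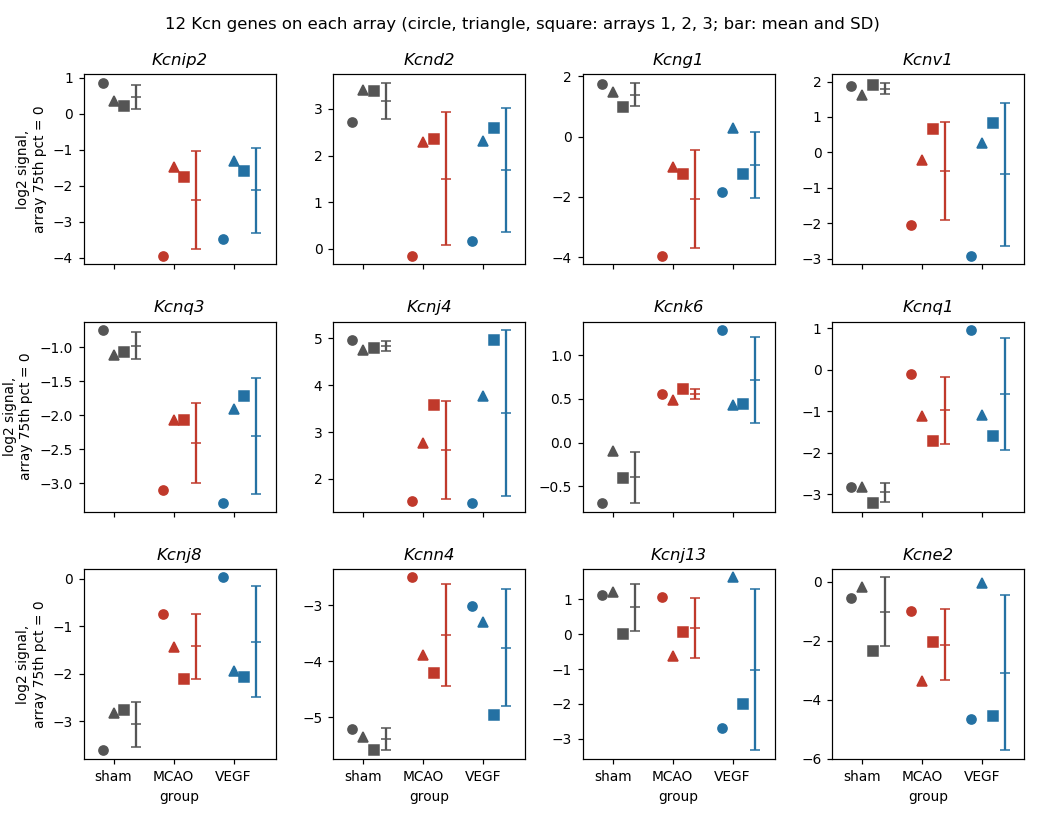
Log2 signal of 12 Kcn genes on each array (symbols 1 to 3), with each group's mean and SD (n = 3). Kcnip2 and Kcng1 lie lower and Kcnk6 and Kcnq1 higher on all 6 ischaemic arrays than on every sham array, while Kcnj13 and Kcne2 are low on VEGF arrays 1 and 3.

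The KCNQ family split. Kcnq3 encodes a pore subunit of the M-current, which restrains repetitive firing of neurons. Kcnq3 read -0.75, -1.12 and -1.07 in sham mice, -3.09, -2.07 and -2.06 in MCAO mice and -3.29, -1.90 and -1.72 in VEGF mice, with no overlap. It differed by -1.38 ± 0.39 (limma adjusted p = 0.0745) and, without the pair, by -0.96 ± 0.13 (limma adjusted p = 0.00421). Kcnq5 differed by -1.42 ± 0.73 (-0.67 ± 0.37), passed in neither fit and overlapped with sham.

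Kcnq1, known from heart and epithelia, went the other way. Its log2 signal was -2.83, -2.83 and -3.22 in sham mice, -0.11, -1.11 and -1.71 in MCAO mice and 0.95, -1.09 and -1.60 in VEGF mice. Every ischaemic value lay above every sham value, and VEGF array 1 was the highest. Kcnq1 differed by 2.18 ± 0.56 (limma adjusted p = 0.0605), the highest difference of the 89, and passed without the pair at 1.58 ± 0.21 (limma adjusted p = 0.00414). Kcne4, an accessory subunit that can join Kcnq1 pores, read -3.65, -4.11 and -3.95 in sham mice, -0.86, -1.97 and -2.67 in MCAO mice and -0.05, -2.92 and -3.57 in VEGF mice, again without overlap, though VEGF array 3 came close to sham. Kcne4 differed by 1.90 ± 0.73 and by 1.12 ± 0.24 without the pair (limma adjusted p = 0.0179), and its second probe gave 0.42 in place of 1.90. Kcne3 differed by 0.80 ± 0.28 and passed in neither fit.

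The ether-a-go-go genes were all below 0 with all arrays, and none passed. Without the pair 7 of the 8 were below 0. Kcnh1 had the largest difference at -1.51 ± 0.81 (-0.67 ± 0.46) and read -0.62, -1.24 and -1.25 in sham mice, -3.95, -1.99 and -1.31 in MCAO mice and -4.50, -2.70 and -0.82 in VEGF mice. Its values on MCAO array 1 and VEGF array 1 were more than 2 units below the sham range, while VEGF array 3 lay within that range. Kcnh3, a forebrain member, differed by -1.20 ± 0.63 (-0.51 ± 0.26), and Kcnh2, a pore best known from the heart, by -0.43 ± 0.37 (-0.15 ± 0.27).

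Inward rectifiers had a median of -0.77, with 10 of 14 tested genes below 0, and of -0.43 without the pair. Kcnj4, a postsynaptic rectifier of forebrain neurons, read 4.96, 4.76 and 4.80 in sham mice, 1.52, 2.76 and 3.58 in MCAO mice and 1.48, 3.76 and 4.97 in VEGF mice. MCAO arrays all lay below sham, while VEGF array 3 lay above every sham array. The differences from sham were -2.22 ± 0.83 in MCAO and -1.43 ± 0.83 in VEGF with all arrays. Without the pair the MCAO difference was -1.67 ± 0.39 (limma adjusted p = 0.0289) and the VEGF difference -0.47 ± 0.39 (limma adjusted p = 0.421). The VEGF against MCAO difference of Kcnj4 without the pair was 1.19 ± 0.43 (limma adjusted p = 0.642), so the 2 groups were not shown to differ. The G-protein-gated genes Kcnj3, Kcnj6 and Kcnj9 differed by -1.13 ± 0.68 (-0.35 ± 0.16), -0.81 ± 0.33 (-0.48 ± 0.20) and -1.21 ± 0.69 (-0.42 ± 0.21), and none passed. Without the pair Kcnj12 and Kcnj14 were lower (-0.44 ± 0.11 and -1.08 ± 0.20).

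The glial rectifiers did not move together. Kcnj10 sets the potassium permeability of astrocytes, and Kcnj16 joins it in mixed channels. Kcnj10 read 3.93, 4.99 and 4.48 in sham mice, 5.27, 4.50 and 4.11 in MCAO mice and 4.48, 5.05 and 4.18 in VEGF mice, with overlapping groups and a difference of 0.13 ± 0.34 (-0.01 ± 0.32). Kcnj16 read 1.94, 2.14 and 1.87 in sham mice, 1.08, 1.09 and 1.07 in MCAO mice and 2.41, 1.20 and 0.70 in VEGF mice. All ischaemic values of Kcnj16 lay below sham except that of VEGF array 1, which lay above every sham value. Kcnj16 differed by -0.73 ± 0.33 with all arrays and by -0.97 ± 0.15 without the pair (limma adjusted p = 0.00651). The median of 8 astrocyte markers lay between -0.25 and 0.12 on 5 ischaemic arrays and at 0.79 on VEGF array 1, and the part of astrocyte content in the Kcnj16 value was not tested.

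Kcnj8 and Kcnj11 encode the pores of ATP-sensitive channels, the first in pericytes and vascular muscle and the second in neurons. Kcnj8 read -3.62, -2.82 and -2.76 in sham mice, -0.73, -1.44 and -2.11 in MCAO mice and 0.03, -1.93 and -2.07 in VEGF mice, and every ischaemic value lay above every sham value. It differed by 1.69 ± 0.51 (limma adjusted p = 0.0886) and by 1.18 ± 0.27 without the pair (limma adjusted p = 0.02). Abcc9, the sulfonylurea receptor that pairs with Kcnj8, differed by 1.50 ± 0.44 and by 1.11 ± 0.28 without the pair (limma adjusted p = 0.0289). The 8 pericyte and muscle markers, of which Abcc9 is one, did not share that direction. Without the pair 3 were higher and 4 lower, against 12.6% and 18.2% of all genes. Their summed signal was 26.8 to 32.4 in sham, 20.3 to 22.6 in MCAO and 23.8 to 42.7 in VEGF mice. Kcnj11 differed by -0.88 ± 0.80 (0.01 ± 0.30), and its receptor Abcc8 by -0.99 ± 0.69 (-0.22 ± 0.28), and neither passed in either fit. Kcnj2, a classical strong rectifier, differed by 0.40 ± 0.25.

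Kcnj13 and Kcne2 encode a rectifier and an accessory subunit of the choroid plexus epithelium, and both followed single arrays rather than groups. Kcnj13 read 1.13, 1.20 and 0.00 in sham mice, 1.08, -0.63 and 0.05 in MCAO mice and -2.68, 1.62 and -2.00 in VEGF mice. Kcne2 read -0.55, -0.16 and -2.34 in sham mice, -0.98, -3.35 and -2.05 in MCAO mice and -4.65, -0.03 and -4.55 in VEGF mice. Both genes were lowest on VEGF arrays 1 and 3 and high on VEGF array 2. The choroid plexus marker Ttr was lowest on the same 2 arrays, with differences from the sham mean of 2.12, -0.80 and 0.19 in MCAO mice and -7.25, 1.23 and -7.91 in VEGF mice. Folr1, Kl and Clic6 were also lowest on these 2 arrays. Foxj1, the other marker listed, was not, with differences of 0.85 on VEGF array 1 and -0.17 on VEGF array 3. The summed signal of 5 choroid plexus and ependyma markers was 30.6 to 106 in sham, 38.9 to 297 in MCAO and 0.982 to 157 in VEGF mice. In sham mice that sum was almost all Ttr (log2 signal 4.81 to 6.63). Against sham, Kcnj13 differed by -1.20 ± 0.89 and Kcne2 by -1.58 ± 1.08, neither passed, and the part of choroid plexus content was not tested.

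Among the tandem-pore leak channels, Kcnk6 rose. This gene encodes a weakly rectifying pore of vessels and macrophages. Its log2 signal was -0.68, -0.10 and -0.41 in sham mice, 0.55, 0.49 and 0.61 in MCAO mice and 1.28, 0.42 and 0.44 in VEGF mice. Every ischaemic value lay above every sham value, and 5 of the 6 were between 0.42 and 0.61. Kcnk6 rose by 1.03 ± 0.24 (limma adjusted p = 0.0432, 95% interval 0.49 to 1.57), a 2.04-fold higher signal, and by 0.89 ± 0.16 without the pair (limma adjusted p = 0.00924). The call was lost without MCAO array 2 or MCAO array 3 (limma adjusted p = 0.080 and 0.079), without any 1 sham array (0.099 to 0.206), with the replicate block, which takes the array number as a term (0.057), and with no filter on dim probes (0.059), on differences of 0.89 to 1.18. Markers of infiltrating macrophages and neutrophils rose in the same arrays, with medians of 4.56 to 7.13 above the sham mean. Of the 6 tested 5 were called, against 5.62% of all genes. Their summed signal was 48.1 to 62.1 in sham, 73.8 to 180 in MCAO and 70.2 to 153 in VEGF mice. In sham mice that sum was almost all Itgam (log2 signal 5.58 to 5.94), which was not called (-0.07 ± 0.15). The part of these cells in the Kcnk6 value was not tested.

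The remaining leak channels differed less. Kcnk2, a mechanically and lipid-gated pore, read -0.87, -1.22 and -1.32 in sham mice, -3.18, -1.74 and -1.98 in MCAO mice and -2.11, -2.24 and -1.59 in VEGF mice, without overlap. It differed by -1.01 ± 0.33 and by -0.75 ± 0.20 without the pair (limma adjusted p = 0.0319). Kcnk13, the leak channel of microglia, differed by 0.63 ± 0.39 (0.31 ± 0.29), with the highest value on MCAO array 1, and did not pass. Kcnk1, found in astrocytes and neurons, differed by -0.41 ± 0.27 (-0.15 ± 0.15). Over the 13 tested Kcnk genes the median was -0.28 and 9 were below 0, and without the pair Kcnk6 was higher and Kcnk2 and Kcnk16 (-0.46 ± 0.11) were lower.

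The calcium-activated channels include Kcnma1, the large-conductance pore, its beta subunits Kcnmb and the small- and intermediate-conductance Kcnn genes. Kcnma1 differed by -1.23 ± 0.69 (-0.46 ± 0.22) and Kcnmb4, its neuronal beta subunit, by -0.81 ± 0.49 (-0.34 ± 0.33), and neither passed in either fit. Kcnmb2 had the largest MCAO difference of its subfamily (-1.02 ± 0.44). Kcnmb3 was lower without the pair (-1.07 ± 0.22). Of the gamma subunit genes Lrrc26, Lrrc38 and Lrrc55, 0 of 3 passed in either fit. Kcnn2, of small conductance and neuronal, differed by -0.82 ± 0.37 (-0.50 ± 0.22) and did not pass. Kcnn3, also of small conductance, lay below sham on all 6 arrays, differed by -0.54 ± 0.17 (limma adjusted p = 0.0982) and passed without the pair at -0.51 ± 0.12.

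Kcnn4, the intermediate-conductance channel of microglia, T cells and endothelium, lay above sham on all 6 arrays. Its log2 signal was -5.20, -5.36 and -5.59 in sham mice, -2.50, -3.88 and -4.21 in MCAO mice and -3.02, -3.30 and -4.95 in VEGF mice. VEGF array 3 was the nearest to sham and MCAO array 1 the farthest. Kcnn4 differed by 1.74 ± 0.50 (limma adjusted p = 0.0781) and by 1.29 ± 0.38 without the pair (limma adjusted p = 0.0439). Markers of T cells had medians of 0.48 to 1.78 above the sham mean on those arrays, with 2 of 3 higher, against 4.24% of all genes. Their summed signals were 1.26 to 1.83 in sham, 1.48 to 1.54 in MCAO and 1.95 to 2.08 in VEGF mice. In sham mice that sum was almost all Cd3e (log2 signal 0.28 to 0.84), which was not called (0.11 ± 0.16). Microglial markers had medians of 0.05 to 1.57, with 0 of 6 higher and 1 lower, against 4.24% and 1.38% of all genes. The summed signals of microglial markers were 43.7 to 54.4 in sham, 52.1 to 79.5 in MCAO and 55.4 to 156 in VEGF mice. The part of these cells in the Kcnn4 value was not tested. The sodium-activated pores Kcnt1 and Kcnt2 differed by -0.80 ± 0.66 (-0.06 ± 0.24) and -1.05 ± 0.32, and Kcnt2 was lower without the pair (-0.82 ± 0.23). Kcnu1, a large-conductance pore of sperm, differed by -0.52 ± 0.43 (-0.05 ± 0.14), and Kcnrg, a regulator of channel assembly, by 0.15 ± 0.15 with 2 probes of opposite sign.

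Other genes of potassium transport are set against shares of 5.62% of all genes with all arrays and 30.8% without the pair. Of 10 tested subunits of the sodium-potassium pump, Fxyd2 was lower (-0.98 ± 0.16, limma adjusted p = 0.012) and 9 did not pass, and without the pair 1 was higher and 3 lower. Of 5 cation-chloride cotransporters 0 passed. Without the pair 1 was higher, Slc12a4, and 2 were lower, among them Slc12a5, the neuronal extruder of chloride (-0.62 ± 0.14). Of 3 hyperpolarisation-activated channels 0 passed, and Hcn2 was lower without the pair (-0.44 ± 0.13). Of Rest, Rcor1 and Sin3a, which encode a repressor of neuronal genes and its partners, 0 of 3 passed in either fit, and Rest differed by 1.05 ± 0.38.

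VEGF against MCAO, the comparison the study's title names, gave no call among Kcn genes. With all arrays 0 of 89 passed by limma at an adjusted p of 0.05, against 0.00649% of all genes, and 0 had an unadjusted p under 0.05, against 2.78%. Without the pair 0 of 89 passed, against 0.00973% of all genes, and 4 had an unadjusted p under 0.05 (4.49%), against 7.4%. Those 4 were Kcna2, Kcne4, Kcnj2 and Kcnj4. VEGF arrays lay below every MCAO array for 0 of 89 genes, against 3.48% of all genes, and above for 0, against 2.33%. The median difference was 0.02 with 40 of 89 below 0 (44.9%), against a median of -0.02 and 53.4% below 0 over all genes.

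The 5 largest differences between VEGF and MCAO were those of Kcnj13, Kcng1, Kcne2, Kcnmb3 and Kcnj4. Kcnj13 differed by -1.18 (95% interval -3.52 to 1.16) and Kcne2 by -0.95 (-3.79 to 1.90), and the single-array values of both are given above. Kcng1 differed by 1.13 (-0.71 to 2.98), Kcnmb3 by -0.85 (-1.79 to 0.09) and Kcnj4 by 0.78 (-1.11 to 2.68). For the 2 genes called against sham, the interval was -1.42 to 1.95 for Kcnip2 and -0.46 to 0.79 for Kcnk6. The median 95% half-width of a Kcn gene was 1.28 log2 units with all arrays, 0.90 with the replicate block and 0.68 without the pair. For a typical Kcn gene, the interval around a smaller difference than these would span both signs in the respective fit. These widths are not adjusted for the number of genes tested. A call by adjusted p needed a larger difference, and the size needed was not computed.

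**Figure D5:**
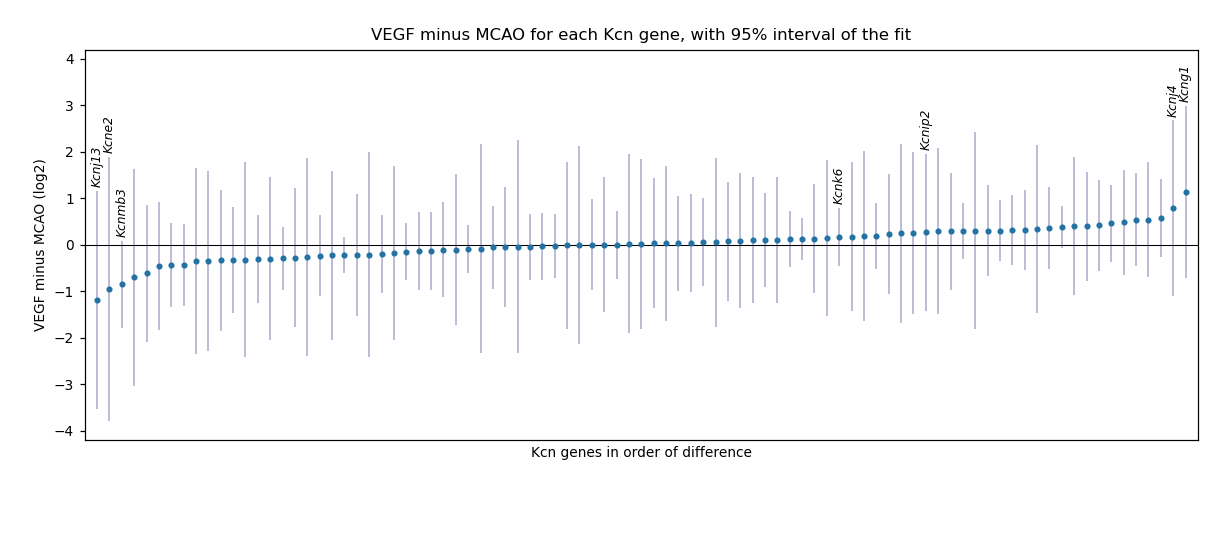
VEGF mean minus MCAO mean (log2) for each of the 89 tested Kcn genes in order of size, with the 95% interval of the fit and 7 genes named. Every interval includes 0, and the differences run from -1.18 for Kcnj13 to 1.13 for Kcng1.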

How the data were processed

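Brain RNA of 9 mice was labelled with Cy3 (200 ng each) and hybridised to 1-colour Agilent arrays. The deposited intensity values were made, per the file headers and the submitters' processing notes, by Agilent Feature Extraction 10.7.1.1. It subtracted background and divided by a spatial trend, except on MCAO array 1, which was processed without detrending. The trend is deposited per spot as a ratio. MCAO array 1 was scanned on another day. The authors also deposited a table that is read as log2 values, since its columns correlate with the log2 intensity of the matching array at 0.998 to 1.00. Its median is 6.97 in every column, and its scaling method is not given in the sources used here.

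From 55681 non-control probes, log2 intensity minus each array's 75th percentile was computed, spots of a probe were averaged and outlier spots left out. The brightest of the 43921 kept probes stood for a gene, which left 30837 genes and unnamed items, both called genes. Symbols came from RefSeq accessions, matched without versions, for 26582 probes. limma 3.58.1 in R 4.3.3 fitted all 9 arrays without covariates, with two-sided tests and 8.48 degrees of freedom, and was tested on simulated data. Signals of different probes are compared only to choose the brightest probe and in the summed signals of marker lists, where bright probes weigh most. No spot was saturated. The number of arrays limits the precision.

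Members and lists were chosen with earlier results of these data known, so lists get counts and medians and no p. Named genes are those called with groups that do not overlap, the largest MCAO difference of each subfamily, a list of well-known brain members and the 5 largest differences between VEGF and MCAO. Others, such as those called only without the pair of arrays, were chosen after their values were seen. A few genes that meet these rules are not reported here by name, but are included in all counts and medians. Alternatives were scaling, background correction, probe choice, filters, covariates and single arrays left out. The deviations of same-numbered MCAO and VEGF arrays correlated at 0.22 to 0.59 over 3 pairs. MCAO array 2 correlated better with VEGF array 3 (0.39), and VEGF array 2 with MCAO array 3 (0.23). Because array 1 stood apart in both ischaemic groups, these correlations cannot show whether the numbers mark pairs, and pairing was not shown for any number. Same-numbered sham and ischaemic arrays correlated at -0.11 to 0.15.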

Additional observations from a re-analysis of the deposited data

How the results depend on the processing

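For MCAO against sham, the count of Kcn genes called was 0 with all arrays and 0 to 9 with a single array left out, the 9 without VEGF array 1. It was 20 without both MCAO array 1 and VEGF array 1, 33 with gene-by-gene array weights (chosen after the data were seen), 3 with age as a covariate, 2 with normexp background correction, 2 with only the groups compared and 3 at a threshold of 0.1. For VEGF against sham it was 0, with 0 to 5 when a single array was left out, the 5 without MCAO array 1 and 1 without VEGF array 2. It was 11 without the pair, 15 with array weights, 1 with age, 2 with each array's median as the base and 2 at a threshold of 0.1. For both groups against sham it was 2, with 0 to 5 when a single array was left out. Leaving out any 1 sham array, MCAO array 2 or MCAO array 3 gave 0, leaving out MCAO array 1 gave 5 and leaving out VEGF array 1 gave 4. It was 25 without the pair, 31 with array weights, 8 with age, 4 with normexp, 0 with no filter on dim probes and 9 at a threshold of 0.1. Quantile normalization and the deposited table each called 2 higher and 0 lower, and the median base 3 higher and 0 lower, in place of 1 and 1. Leaving out arrays lowers the number of samples, and the cause of the other changes was not tested. The array weights also called 40.2%, 23% and 40.2% of all genes in these 3 comparisons. The shares without the pair are given above and those with the replicate block below. For the other alternatives the share of all genes called is not given. Those counts show how the calls depend on the setting and are not read as a result about Kcn genes. For VEGF against MCAO the count was 0 under every alternative run.

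With the replicate block (the label number as a fixed term) the counts were 1, 1 and 7 in the 3 sham comparisons (against 3.99%, 3.07% and 7.96% of all genes) and 0 for VEGF against MCAO, where it changed no call. Kcnk6 was not called with the block (limma adjusted p = 0.057). Sham arrays share only a number with the others: the same-number correlations over all groups ran from -0.11 to 0.59, and 6 of 9 arrays correlated best with their own number. Kcnip2 was called in 17 and Kcnk6 in 20 of 27 alternatives, and no called value changed direction. These tallies do not measure robustness, because some alternatives could not change the values. Each gene has a single probe, so the alternatives of probe choice repeat its main values, and the threshold of 0.1 rereads the main fit. The tallies also include the array weights and the fit without the pair, which were chosen on these data. limma's array weights by restricted maximum likelihood did not converge and were not run. Dim signal limits the 5 genes not tested.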

Other observations

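The antisense transcripts Kcnq1ot1 and Kcnmb4os1, which lie at Kcn genes and were left out above, were both tested. Kcnq1ot1 differed by -0.25 ± 0.33 between ischaemic and sham arrays and Kcnmb4os1 by -0.02 ± 0.19, and neither passed by limma in any of the 4 comparisons.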
